A study of Petrolisthes cinctipes with 164 samples.

Results

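The 6 probes described here were Pc01Hc13, Pc03Nd19, Pc03Ni14, Pc04Nk04 and Pc04Nk13, which the study listed as ATP synthase subunit a, and Pc01Hd14, which it listed as cytochrome c oxidase subunit 2. They were 6 of 13818 probes on an in-house cDNA array of the porcelain crab Petrolisthes cinctipes, a small crab of the shore between the tide lines. The probes had been chosen by the authors of the study on a negative differential, heat stressed minus control, shortly after heat stress. Their values at 0.5 h and 1 h are therefore given as a description with no test. The pairs of 0.5 h and 1 h did enter the estimate of the spread that the later tests shared. In the picture the filter on the differential is set at 0.5 h and 1 h, but its window is not stated in words and the course over all 9 time points was on view when the probes were chosen. The tests at 2 h and later are therefore not known to be free of that choice. The probe names were read from a picture in the paper, and the deposited table held probe names with no gene names or sequences, so the annotation could not be checked here. The paper's text places all genes it found in the ATP synthase functional group, while its picture lists Pc01Hd14 as cytochrome c oxidase subunit 2. The paper reports that many probes of its list were replicates of a single gene, without saying in its text which. Whether this holds for each of the 5 ATP synthase probes could not be checked here. Counts of these probes are therefore not counts of separate genes.

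ATP synthase makes ATP in mitochondria from the proton gradient across the inner membrane, and its subunit a forms part of the channel through which the protons return. Cytochrome c oxidase is the terminal enzyme of the respiratory chain, which passes electrons to oxygen and pumps protons, and its subunit 2 takes up the electrons from cytochrome c. In animals the genes of both subunits usually lie in the mitochondrial genome, apart from the nuclear genes of most other subunits of these complexes.

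Heat stressed crabs were warmed to 30 °C over 4 h, while control crabs were held at 11 °C for those 4 h, and all crabs then recovered at 11 °C in a common tank. Crabs were sampled at 9 recovery time points, with 5 heat stressed and 5 control crabs at 0.5, 2, 12, 18, 24 and 30 h, 4 of each at 1 h and 6 h, and 3 of each at 4 h. RNA of a heat stressed crab and RNA of a control crab, 10 µg of total RNA each, were labelled with a red dye (Cy5) and a green dye (Cy3) and hybridised together, and the pair was measured again on another array with the dyes exchanged (arrays a and b). In all, 82 arrays held 41 heat stressed and 41 control crabs, paired by their replicate number. The strain, age and sex of the crabs and the tissue sampled were not stated in the labels used here, and no gene names were at hand with which to check a tissue. With intensities from bulk RNA, fewer cells of one type and less RNA per cell cannot be told apart.

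The deposited values were intensities on a scale taken as log2 from their range of 5.14 to 16.57, 1 per probe and channel, so a difference of -1 corresponds to a halved intensity. Medians of the channels ranged over arrays between 6.77 and 9.17, but within an array the Cy5 and Cy3 medians lay at most 0.09 apart. The difference within a pair, averaged over arrays a and b, was therefore the measurement, and levels of a probe are given only beside those of the same probe. On 10 arrays (both arrays of replicate 2 at 4 h, both arrays of replicates 3 and 4 at 6 h, and array b of replicate 5 at 12, 18, 24 and 30 h), title and description of the samples gave opposite treatments, and the title was followed. By the title, all 6 probes lay below 0 on 10 of these 10 arrays. With the description in place of the title they lie above 0 there. Unless the description is named, the values below follow the title, and the mean differences and counts of pairs of 6 to 30 h are given by the description as well, a comparison partly added after seeing the data.

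At 0.5 h and 1 h, the time points at which the pictured filter was set, the 6 probes were lower in heat stressed crabs in most pairs. The difference of the group medians at 0.5 h was -1.35 for Pc01Hc13, -1.19 for Pc03Nd19, -1.21 for Pc03Ni14, -0.73 for Pc04Nk04, -0.78 for Pc04Nk13 and -0.40 for Pc01Hd14. At 1 h it was -1.45, -1.46, -1.39, -1.34, -0.61 and -0.37 in the same order. Pc01Hc13 had log2 intensities of 8.64, 9.75, 8.90, 9.47 and 12.00 in the heat stressed crabs of 0.5 h, against 9.44, 10.83, 10.86, 11.49 and 10.23 in their control partners. The 5th pair ran the other way: its heat stressed crab had the highest level of the 10 crabs, and its 6 probes had differences between 0.60 and 1.83. At 1 h Pc01Hc13 had 9.23, 9.98, 9.68 and 9.51 in heat stressed crabs and 11.17, 10.86, 10.93 and 12.02 in control crabs, with no overlap between the groups. Pc03Ni14 and Pc04Nk04 did not overlap at 1 h either, while Pc03Nd19, Pc04Nk13 and Pc01Hd14 did. How many of all probes were separated at 1 h was not counted, so these separations are given as a description only.

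**Figure D1:**
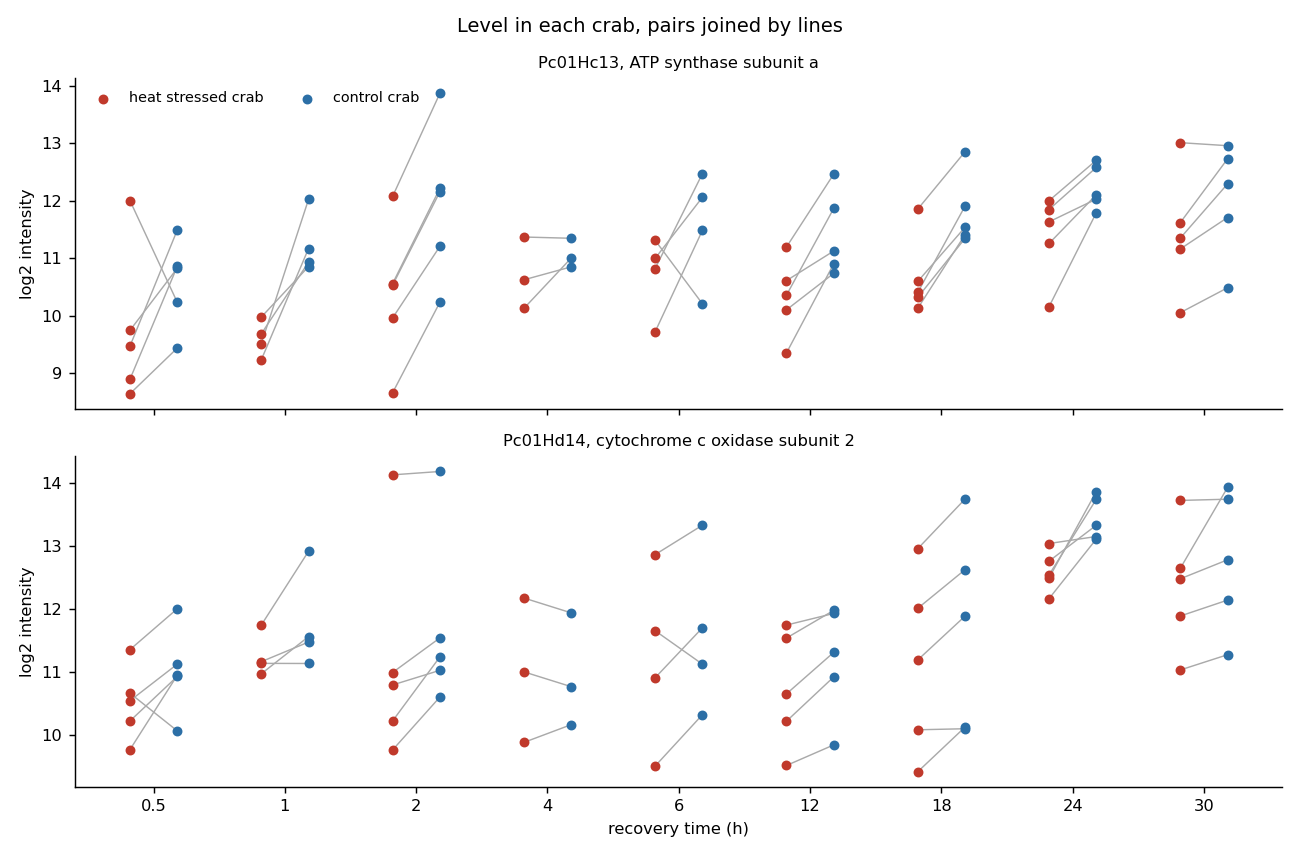
Log2 intensity (vertical axis) of Pc01Hc13 and Pc01Hd14 in each of 82 crabs by recovery time in hours (horizontal axis), heat stressed crabs in red on the left and control crabs in blue on the right, with pairs joined by lines. Most lines run upward to the control crab, while levels of both groups overlap at most time points, as for Pc01Hc13 at 2 h (8.66 to 12.08 in heat stressed crabs and 10.23 to 13.87 in control crabs).

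At 2 h all 6 were lower in the heat stressed crab of every pair. Pc01Hc13 had 12.08, 10.53, 10.56, 8.66 and 9.96 in heat stressed crabs, against 13.87, 12.16, 12.21, 10.23 and 11.21 in their control partners. The levels of the groups overlapped, since crabs of different pairs lay far apart, but the differences within pairs did not vary much (-1.79, -1.62, -1.66, -1.57 and -1.25). On average its intensity in heat stressed crabs was 33.5% of that in control crabs (95% interval 20.8% to 53.9%, n = 5 pairs). Of all 13818 probes it had the lowest mean difference at 2 h.

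Of the 6 probes, 4 passed the test at 2 h, with an adjusted p under 0.05 in limma on the pair differences (Benjamini-Hochberg over all probes), where 0.0651% of all probes were called lower. The difference was -1.58 for Pc01Hc13 (SE 0.34, adjusted p = 0.0246), -1.41 for Pc03Nd19 (SE 0.32, adjusted p = 0.0336), -1.35 for Pc03Ni14 (SE 0.31, adjusted p = 0.0433) and -1.34 for Pc04Nk04 (SE 0.31, adjusted p = 0.0418). The remaining ATP synthase probe, Pc04Nk13, had a difference of -0.65 (SE 0.21, adjusted p = 0.297), and the cytochrome c oxidase probe Pc01Hd14 one of -0.54 (SE 0.20, adjusted p = 0.517), and neither passed. All 6 were below 0 in all 5 pairs, as were 2.6% of all probes. The 4 calls at 2 h were fragile: with any 1 of the 5 pairs left out, 0 of 6 probes passed. Without the pairing of the crabs 0 of 6 passed too. With the spread estimated from the 2 h pairs alone, the same 4 probes passed, with adjusted p between 0.00257 (Pc03Nd19) and 0.0143 (Pc03Ni14).

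Among the 6 probes, Pc01Hd14 had the widest range of differences at 2 h. Its log2 intensities were 14.13, 10.99, 10.80, 9.76 and 10.22 in heat stressed crabs and 14.19, 11.54, 11.03, 10.60 and 11.24 in their control partners, so that the first pair stood well above the others in both crabs. The differences were -0.05, -0.55, -0.23, -0.84 and -1.02.

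At 4 h, with 3 pairs, no direction could be read. Pc01Hc13 had 10.63, 10.13 and 11.37 in heat stressed crabs and 10.85, 11.00 and 11.35 in control crabs, and the differences of the 6 probes averaged between -0.36 (Pc01Hc13) and 0.06 (Pc01Hd14). Of the 6 probes, 0 passed the test, where 0% of all probes were called lower, and 0 were below 0 in all 3 pairs, where 13.3% of all probes were. An unadjusted p under 0.05 was held by 0 of the 6 and by 332 of all 13818 probes. In replicates 1 and 3 the dye-swapped arrays opposed each other. The difference of Pc01Hc13 was 0.94 on array a and -1.39 on array b of replicate 1, and -0.82 on array a and 0.86 on array b of replicate 3. Over all 13818 probes the correlation of arrays a and b was -0.47 in replicate 3, the only one of 41 pairs below -0.3, and -0.13 in replicate 1, against a median of 0.27. The direction of these arrays was therefore not settled at 4 h. If arrays 1a and 3b were turned, a setting chosen after seeing the data, the 4 h difference of Pc01Hc13 would be -0.96, and if arrays 1b and 3a were turned it would be 0.38. The pair whose arrays ran the same way, replicate 2, had differences from -1.05 to -0.28 over the 6 probes, but it is also one of those with opposite treatments in title and description.

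Over the later time points, 6 to 30 h, all 6 probes were lower in heat stressed crabs. With the 5 time points weighted equally, the ATP synthase probes stood at 53.2% of control for Pc01Hc13 (95% interval 42.8% to 66.2%), 54.8% for Pc03Ni14, 57.7% for Pc04Nk04, 58.6% for Pc03Nd19 and 70.5% for Pc04Nk13 (95% interval 61.5% to 80.8%). The cytochrome c oxidase probe Pc01Hd14 stood at 69.0% (95% interval 60.5% to 78.7%). On the log2 scale the differences were -0.91 (SE 0.16, adjusted p = 0.000134) for Pc01Hc13, -0.87 (SE 0.14, adjusted p = 9.83e-05) for Pc03Ni14, -0.79 (SE 0.14, adjusted p = 0.000256) for Pc04Nk04 and -0.77 (SE 0.14, adjusted p = 0.000448) for Pc03Nd19. They were -0.54 (SE 0.09, adjusted p = 0.000178) for Pc01Hd14 and -0.50 (SE 0.10, adjusted p = 0.000601) for Pc04Nk13.

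All 6 thus passed the test over 6 to 30 h, where 2.43% of all probes were called lower. The median difference of the 6 probes was -0.78, against 0.0054 over all 13818 probes, and the ATP synthase probes Pc01Hc13, Pc03Ni14, Pc04Nk04 and Pc03Nd19 ranked 4th, 6th, 10th and 14th from the lowest. With any single pair of 6 to 30 h left out, 6 of 6 probes still passed, and the difference of Pc01Hc13 stayed between -1.04 and -0.85. The calls rested on the pairing of the crabs: compared as 82 separate crabs, 0 of 6 passed and 0.0796% of all probes were called lower, with adjusted p = 0.0825 for Pc01Hc13 and higher values for the others. The values also depended on the treatment labels: with the description followed on the 10 arrays, 0 of 6 passed, and the difference was -0.43 (adjusted p = 0.423) for Pc01Hc13 and -0.24 (adjusted p = 0.454) for Pc01Hd14. The count of all probes called with the description is not given here. Whether calls were lost over all probes as well therefore cannot be read from this.

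**Figure D2:**
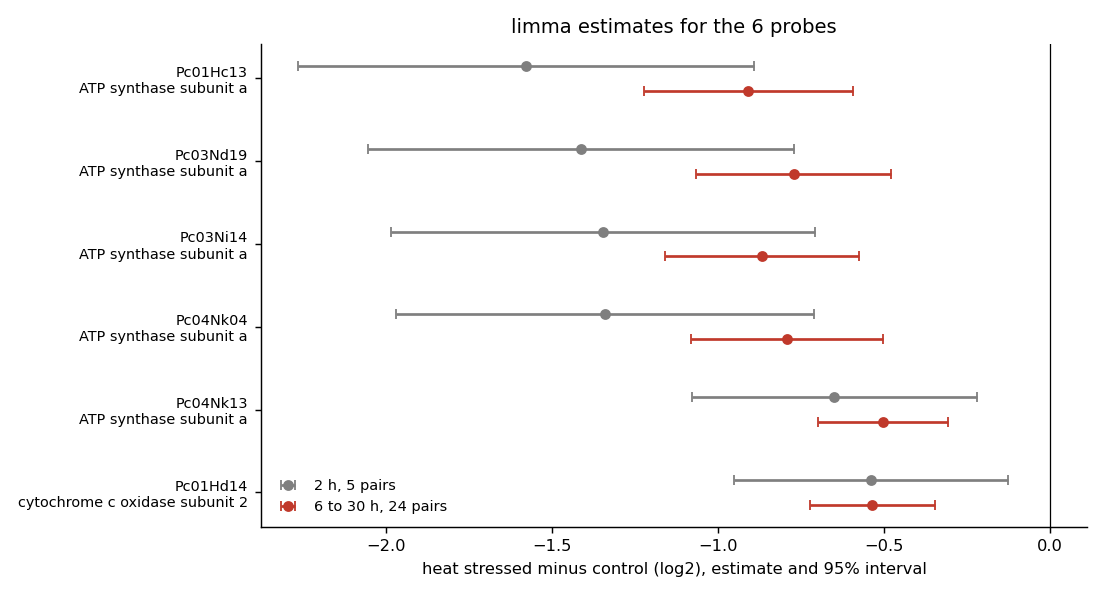
Difference of heat stressed minus control (horizontal axis, log2) for each of the 6 probes (vertical axis), as the limma estimate with its 95% interval, at 2 h in grey above (5 pairs) and over 6 to 30 h in red below (24 pairs). All 12 intervals lie below 0, with the estimates of Pc01Hc13 at -1.58 at 2 h and -0.91 over 6 to 30 h.

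Counted by pair, the later difference was found in most crabs. Pc01Hd14 was below 0 in 23 of 24 pairs, the 4 ATP synthase probes Pc01Hc13, Pc03Nd19, Pc03Ni14 and Pc04Nk04 in 22 of 24 each, and Pc04Nk13 in 20 of 24. All 6 probes were below 0 together in 19 of 24 pairs, and on both arrays of the pair in 15 of 24. These counts depended on the labels: by the description, all 6 were below 0 in 13 of 24 pairs and on both arrays in 9 of 24, and the single probes in 14 (Pc04Nk13) to 19 (Pc04Nk04) of 24. The differences of Pc01Hc13 ranged from -1.76 to 1.10 with a median of -0.97, and those of Pc01Hd14 from -1.37 to 0.53 with a median of -0.59.

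At 6 h, replicate 1 ran against the other pairs. Pc01Hc13 had 11.31, 9.72, 10.82 and 11.00 in heat stressed crabs, against 10.21, 11.49, 12.47 and 12.06 in control crabs, with differences of 1.10, -1.76, -1.65 and -1.06. The heat stressed crab of replicate 1 had the highest level among the heat stressed crabs and its control partner the lowest among the control crabs. Both of its arrays gave the same sign (0.88 and 1.33), and 5 of the 6 probes were above 0 in it, all but Pc04Nk13 (-0.25). Of the 6 probes, 0 passed the test at 6 h, where 0% of all probes were called lower. An unadjusted p under 0.05 was held by 5 of the 6, and by 672 of all 13818 probes, 395 of them lower. Only Pc04Nk13 was below 0 in all 4 pairs, as were 4.54% of all probes. Without replicate 1, the 6 h difference of Pc01Hc13 was -1.49 (adjusted p = 0.0669), and still 0 of 6 passed. Replicates 2, 3 and 4 had all 6 probes below 0 on both arrays, but replicates 3 and 4 are among those with opposite treatments in title and description. With the description followed, the 6 h differences of the 6 probes averaged above 0, between 0.018 (Pc04Nk13) and 0.51 (Pc01Hc13), and 0 of 6 were below 0 in all pairs, as were 11.1% of all probes.

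**Figure D3:**
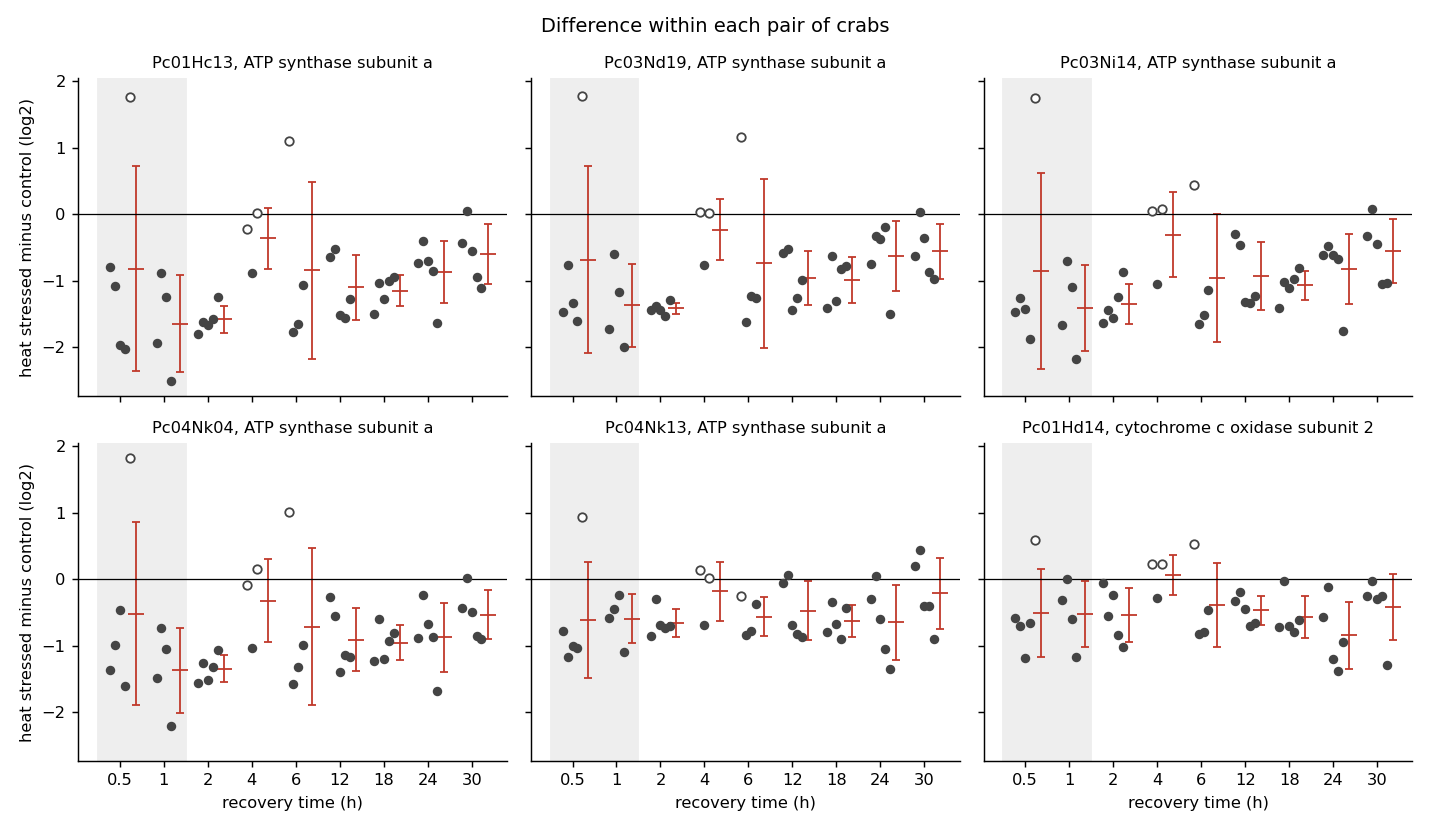
Difference of heat stressed minus control (vertical axis, log2) in each of the 41 pairs by recovery time in hours (horizontal axis), 1 panel per probe, with points for pairs and bars for the mean ± SD of the time point. Open points are 0.5 h replicate 5, 4 h replicates 1 and 3 and 6 h replicate 1, and the grey band marks 0.5 h and 1 h, where the pictured filter was set. Later time points are not known to be free of the choice of the probes. From 12 h on nearly all pairs lie below 0, for example between -1.50 and -0.94 at 18 h for Pc01Hc13.

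At 12 h, Pc01Hc13 had 10.10, 10.61, 10.36, 9.35 and 11.20 in heat stressed crabs and 10.74, 11.13, 11.87, 10.90 and 12.46 in their control partners. The heat stressed crab was lower in each pair, although the groups overlapped. For Pc03Nd19 the levels as deposited did not overlap, with 11.48, 11.13, 11.17, 10.82 and 10.83 in heat stressed crabs and 12.07, 11.65, 12.60, 12.08 and 11.81 in control crabs. Of all probes, 0.0289% showed such a separation in this direction. With each channel centred on its median the groups overlapped, with 3.81 in heat stressed replicate 1 and 3.56 in control replicate 2. In all pairs of 12 h, 5 of the 6 probes were below 0, all but Pc04Nk13 (0.07 in replicate 2), where 3.84% of all probes were. The fit gave -1.10 for Pc01Hc13 (adjusted p = 0.458) and -0.46 for Pc01Hd14 (adjusted p = 0.937), and 0 of 6 passed, where 0% of all probes were called lower. At an unadjusted p under 0.05 there were 6 of 6, and 649 of all 13818 probes, 278 of them lower. By the description, which turns array b of replicate 5, the mean differences ran from -0.78 (Pc01Hc13) to -0.21 (Pc01Hd14), 0 of 6 probes were below 0 in all pairs, as were 2.71% of all probes, and 0 of 6 had groups that did not overlap.

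At 18 h, all 6 probes were below 0 in all 5 pairs, as were 4.86% of all probes. Pc01Hc13 had 10.41, 10.32, 10.13, 11.86 and 10.60 in heat stressed crabs and 11.91, 11.35, 11.41, 12.85 and 11.54 in control crabs. The levels of the groups overlapped through replicate 4, which was high in both of its crabs. The 5 differences lay between -1.50 and -0.94. The mean differences ran from -1.15 for Pc01Hc13 (45.1% of control) to -0.56 for Pc01Hd14 (67.6% of control). In limma 0 of 6 passed, with adjusted p between 0.137 and 0.280, where 0.166% of all probes were called lower. An unadjusted p under 0.05 was held by 6 of 6, and by 1111 of all 13818 probes, 787 of them lower. With the spread estimated from the 18 h pairs alone, Pc01Hc13, Pc03Ni14 and Pc04Nk04 passed (adjusted p = 0.0115, 0.0121 and 0.0258). The count over all probes in that setting is not given here. By the description, the mean differences ran from -0.97 (Pc01Hc13) to -0.44 (Pc01Hd14), and only Pc01Hc13 and Pc04Nk04, 2 of 6, were below 0 in all pairs, as were 2.82% of all probes.

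At 24 h the cytochrome c oxidase probe passed and the ATP synthase probes did not. Pc01Hd14 had 12.76, 13.04, 12.54, 12.50 and 12.17 in heat stressed crabs, against 13.33, 13.16, 13.75, 13.87 and 13.11 in their control partners. In the levels as deposited, every heat stressed crab lay below every control crab, as for 0.0217% of all probes. With each channel centred on its median the groups overlapped, with 5.55 in heat stressed replicate 2 and 5.38 in control replicate 3. Its difference was -0.84 (SE 0.20, adjusted p = 0.0380), 55.8% of control, and it was the 1 of 6 called, where 0.326% of all probes were called lower. Without replicate 1, 3, 4 or 5 the call was lost, as it was on array a alone, on array b alone and without the pairing. For Pc01Hc13, 11.85, 11.63, 12.00, 11.26 and 10.16 in heat stressed crabs stood against 12.58, 12.03, 12.71, 12.11 and 11.79 in control crabs, and the mean difference was -0.86 (adjusted p = 0.418). In all pairs of 24 h, 5 of 6 probes were below 0, all but Pc04Nk13, where 5.96% of all probes were. By the description, the difference was -0.67 for Pc01Hd14 (adjusted p = 0.348) and -0.54 for Pc01Hc13, 5 of 6 were below 0 in all pairs, as were 3.74% of all probes, and the levels of Pc01Hd14 overlapped between the groups. Whether the oxidase probe differed from the synthase probes at 24 h was not tested.

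At 30 h, the mean differences were between -0.60 for Pc01Hc13 and -0.21 for Pc04Nk13, and 0 of 6 probes passed, where 0.485% of all probes were called lower. At an unadjusted p under 0.05 there was 1 of 6, Pc01Hd14 (-0.42), and 1377 of all 13818 probes, 508 of them lower. Pc01Hc13 had 10.05, 13.01, 11.16, 11.35 and 11.62 in heat stressed crabs and 10.49, 12.96, 11.71, 12.30 and 12.73 in control crabs, with wide overlap and, in replicate 2, a difference of 0.05. Only Pc01Hd14 was below 0 in all 5 pairs, as were 2.32% of all probes, and in replicate 2 it was so by 0.02. In replicates 1 and 2 the arrays of a pair were not alike: Pc01Hc13 had differences of -0.91 and -0.37 on array a, and of 0.05 and 0.47 on array b. By the description, the mean differences ran from -0.36 (Pc03Nd19) to -0.0090 (Pc04Nk13), and 0 of 6 were below 0 in all pairs, as were 2.83% of all probes.

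Of change in the difference itself over time, none was detected. The difference over 6 to 30 h minus that at 2 h was 0.67 for Pc01Hc13 (95% interval -0.09 to 1.42), 0.64 for Pc03Nd19 (-0.06 to 1.35), 0.55 for Pc04Nk04 (-0.15 to 1.24) and 0.48 for Pc03Ni14 (-0.22 to 1.18). For Pc04Nk13 it was 0.15 (-0.33 to 0.62) and for Pc01Hd14 0.0032 (-0.45 to 0.46). Of the 6, 0 passed, where 0% of all probes were called. An unadjusted p under 0.05 was held by 0 of the 6 and by 551 of all 13818 probes. Yet the intervals of the ATP synthase probes reach past 0.6, so a smaller difference later in recovery is within them. The difference at 30 h minus that over 12 to 24 h was 0.44 for Pc01Hc13 (95% interval -0.35 to 1.23) and 0.20 for Pc01Hd14 (-0.27 to 0.68). Again 0 of 6 passed, where 0.239% of all probes were called. An unadjusted p under 0.05 was held by 0 of the 6 and by 821 of all 13818 probes. Without the pairing, 0 of 6 probes were called lower at any time point from 2 to 30 h, where 0.00724% of all probes were.

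The 6 probes did not all move alike between pairs. Over the 24 pairs of 6 to 30 h, the differences of Pc01Hc13 correlated with those of Pc04Nk04 (r = 0.97), Pc03Ni14 (0.96) and Pc03Nd19 (0.95), but less closely with those of Pc04Nk13 (0.68) and of Pc01Hd14 (0.65). Without 6 h replicate 1 these values were 0.95, 0.97, 0.91, 0.82 and 0.48 over 23 pairs, and by the description they were 0.99, 0.98, 0.97, 0.81 and 0.81 over 24. The points share arrays, and pairs of a time point share its conditions, so the correlations are given as a description. For comparison, the median r of all other probes with Pc01Hc13 was 0.0011 and the 99th percentile 0.55. Without 6 h replicate 1 the 99th percentile was 0.69, so that Pc01Hd14, above it over 24 pairs, lay below it over 23. The description turns the same arrays for every probe, and no percentile was computed with it. Its higher r therefore cannot be read as a closer likeness. Pc04Nk13, although listed under the same name, had the highest difference of the 5 ATP synthase probes in 18 of 24 pairs, and Pc01Hc13 the lowest of the 6 in 11 of 24.

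Other probes followed these patterns as closely as the 6 did each other. The probes outside the 6 with the highest r to Pc01Hc13 over the 24 pairs were Pc02He02 (r = 0.98), Pc04Nf18 (0.97), Pc04Ne17 (0.94), Pc04No20 (0.92) and Pc36Hk10 (0.88), with mean differences between -0.88 and -0.74. Those with the highest r to Pc01Hd14 were Pc04No04, Pc05Wg07 and Pc03Nk05 (r = 0.95 each), with mean differences of -0.53, -0.60 and -0.59. No probe was in both lists (0 shared), but lists this short cannot show whether the patterns were distinct. The lists were not drawn again by the description. No gene name was at hand for these 8 probes.

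Arrays with the dyes exchanged did not give equal values. Over the 24 later pairs, the difference of Pc01Hd14 averaged -0.38 ± 0.60 with the heat stressed crab in Cy5 and -0.70 ± 0.49 with it in Cy3 (SD, n = 24 pairs). The value in Cy5 was the higher in 18 of 24 pairs, and both arrays were below 0 in 16 of 24, or by the description in 10 of 24. Pc01Hc13 averaged -0.99 ± 0.61 with the heat stressed crab in Cy5 and -0.84 ± 0.74 with it in Cy3, and both arrays were below 0 in 21 of 24, or by the description in 15 of 24. Such an offset between dyes cancels in the mean of arrays a and b, which each pair has.

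**Figure D4:**
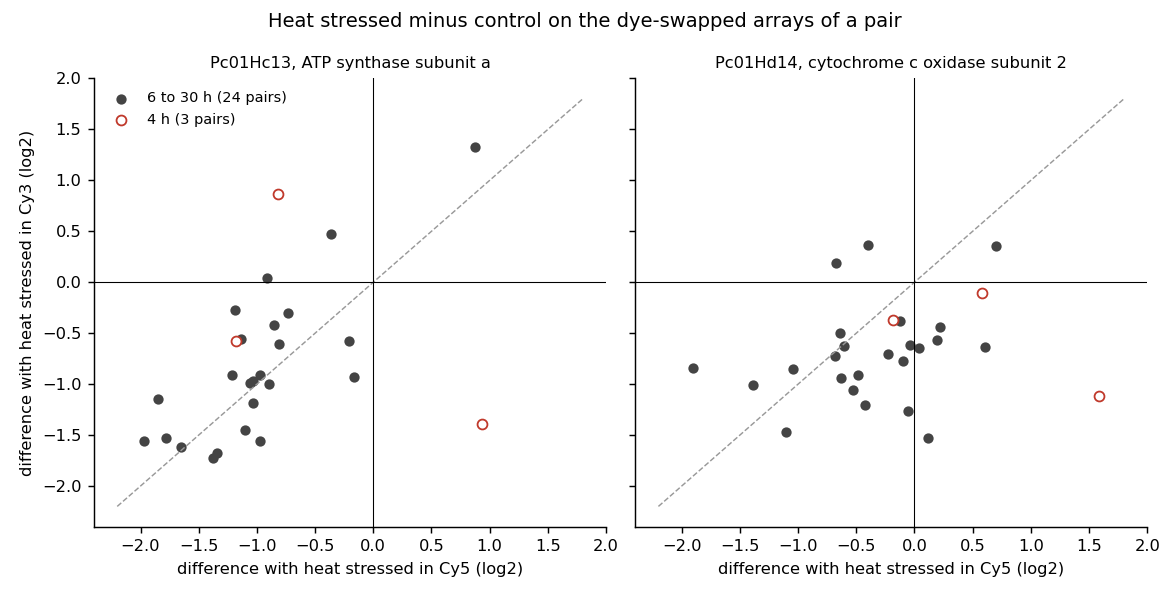
Difference of heat stressed minus control (log2) with the heat stressed crab in Cy5 (horizontal axis) and in Cy3 (vertical axis), for Pc01Hc13 on the left and Pc01Hd14 on the right, 1 point per pair, with the dashed line where both are equal. Filled points are the 24 pairs of 6 to 30 h, of which 21 for Pc01Hc13 and 16 for Pc01Hd14 lie below 0 on both axes, and open points are the 3 pairs of 4 h.

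The levels in control crabs were not constant either. With each channel centred on its median, Pc01Hd14 averaged 3.60 ± 1.06 and 3.48 ± 0.78 in the control crabs of 2 and 12 h, and 5.76 ± 0.48 and 5.26 ± 1.03 in those of 24 and 30 h (SD, n = 5 each). Pc04Nk13 averaged 3.65 ± 0.93 and 3.87 ± 1.06 in those of 2 and 12 h, and 5.29 ± 0.63 and 5.24 ± 0.69 in those of 24 and 30 h. Both were thus highest in the controls of 24 and 30 h. Over the 32 control crabs of 2 to 30 h, these 2 of the 6 probes passed an F test over the 7 time points (adjusted p = 0.0305 for Pc04Nk13 and 0.0385 for Pc01Hd14), where 6.87% of all probes were called. The other ATP synthase probes did not pass, with adjusted p between 0.0590 (Pc03Nd19) and 0.312 (Pc01Hc13). Without centring 0 of 6 passed, and with the control crabs of replicate 2, 3, 4 or 5 left out at all time points 0 of 6 passed as well. Each array held 1 time point, so a change of the controls over time and a difference between arrays cannot be told apart, while the difference within a pair does not depend on it.

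**Figure D5:**
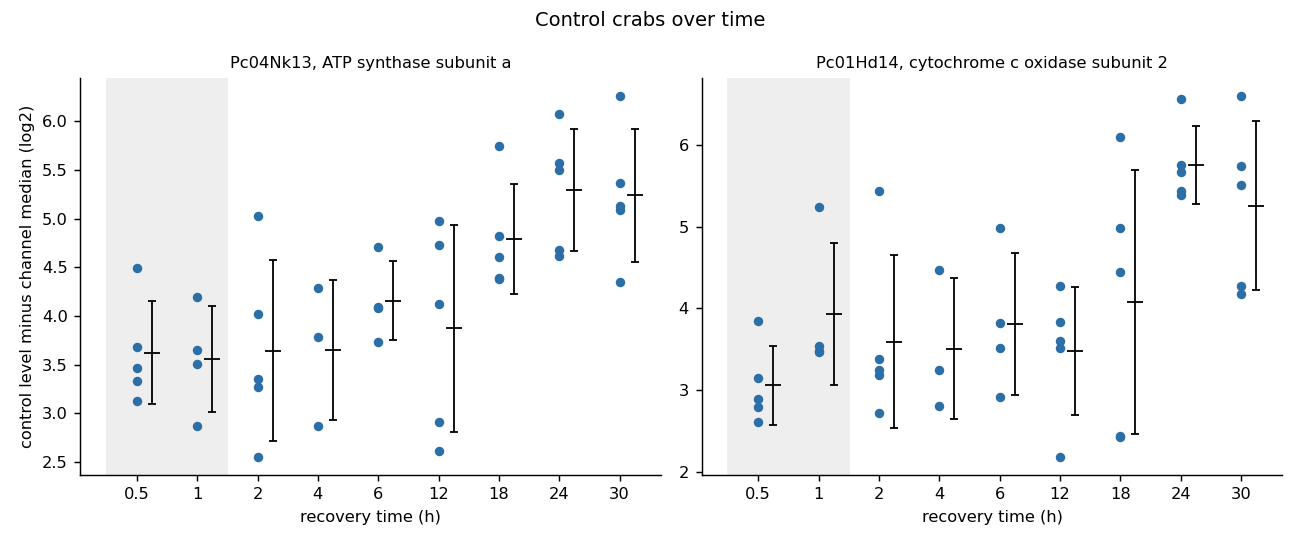
Level minus the channel's median (vertical axis, log2) of Pc04Nk13 on the left and Pc01Hd14 on the right in each control crab by recovery time in hours (horizontal axis), with bars for mean ± SD. The grey band marks 0.5 h and 1 h, where the pictured filter was set, and the means of Pc01Hd14 at 24 and 30 h, 5.76 and 5.26, lie above those of the earlier time points.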

How the data were processed

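The deposited values were log2 intensities of 13818 probes in 164 channels (82 arrays), already processed by the authors. Their background correction and normalization are not given in the sources used here, the log2 scale was taken from the values, and precision is limited by how many arrays there were. They were used as deposited, with 0 missing and 0 sample columns unmatched.

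Treatment came from the sample titles. Arrays a and b of a crab were averaged. The crabs of a pair shared both arrays, and deviated together from their groups over all probes in 41 of 41 pairs (r from 0.44 up to 0.94, over the limit of 0.1), so the replicate number was used as a block. Differences of heat stressed minus control were fitted with limma 3.58.1 (R 4.3.3, lmFit and eBayes) in 9 time groups, Benjamini-Hochberg over all probes, adjusted p under 0.05. The 9 groups shared an estimate of the spread, so pairs of 0.5 h and 1 h took part in it. Nothing in the labels says how independently crabs were kept, so p-values measure the spread between these crabs. Plots were drawn with matplotlib 3.10.9 and tables made with pandas 2.3.3 and numpy 2.4.6 in Python 3.11.15.

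The probes named were the 6 members, the 5 others most like Pc01Hc13 and the 3 most like Pc01Hd14 by Pearson's r. The members, lists and tests were chosen with earlier results of these data known. Alternatives were no block, centred channels, loess within arrays, either array alone, dim probes left out, eBayes with trend and robust, the compared time points alone, the treatment of the description, the median over pairs, each replicate left out and, chosen after seeing the data, the direction of the arrays at 4 h.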

Additional observations from a re-analysis of the deposited data

Results flagged for a closer look

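Of 144 groups of 4 or 5 values (levels of heat stressed crabs, levels of control crabs and pair differences, per probe and time point), 20 held a value far from the rest by Dixon's test, 8 of them pair differences and 12 levels. Chance flags about 1 in 20 groups, and the probes are correlated, so the flags are not independent.

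Pair differences stood apart in 0.5 h replicate 5, high for Pc03Nd19 (1.77, the others -1.60 to -0.76), Pc03Ni14 (1.75) and Pc04Nk13 (0.94), and in 6 h replicate 1, high for Pc03Nd19 (1.16, the others -1.61 to -1.23). The difference was low for Pc03Ni14 in 24 h replicate 5 (-1.76) and for Pc01Hd14 in 30 h replicate 5 (-1.29 against -0.30 to -0.02). It was close to 0 for Pc01Hd14 in 18 h replicate 2 (-0.017) and less negative than the others for Pc04Nk13 in 2 h replicate 2 (-0.29).

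The levels tested were not centred, and the crabs of a pair shared both arrays. Differences between crabs and between arrays thus cannot be told apart in the flags of levels. Both crabs of a pair stood apart in 3 cases. Pc01Hd14 was high in 2 h replicate 1 (14.13 in the heat stressed crab and 14.19 in the control crab), Pc04Nk13 was high in 18 h replicate 4 (12.50 in the heat stressed crab and 13.40 in the control crab), and Pc04Nk04 was low in 30 h replicate 1 (9.73 in the heat stressed crab and 10.15 in the control crab). In the heat stressed crab alone, Pc01Hc13 and Pc04Nk04 were high in 18 h replicate 4 (11.86 and 11.94), and Pc03Ni14 and Pc04Nk04 were high in 0.5 h replicate 5 (12.05 and 11.93). In the control crab alone, Pc04Nk13 was high in 0.5 h replicate 4 (12.65) and Pc03Ni14 low in 24 h replicate 4 (11.82).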

How the results depend on the processing

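Over 6 to 30 h, each of the 6 differences stayed below 0 under all 34 alternatives run, and 6 of 6 probes passed except without the replicate block (0 of 6) and with the treatment of the description (0 of 6). At 2 h, 0 passed without the replicate block, 0 on array b alone, 2 on array a alone, 2 with eBayes with trend and robust, 1 with the treatment of the description, and 0 to 0 with a replicate left out, against 4. Of all probes, 0, 0, 10, 4, 5 and 0 to 5 were called lower in these settings, against 9. At 18 h, 1 passed on array b alone and 3 with that time point alone in the fit, against 0. At 24 h, 0 passed without the replicate block, on either array alone, with trend and robust, with the description or with that time point alone, and 0 to 1 with a replicate left out, against 1. In the controls, 0 passed without centring and 0 to 2 with a replicate left out, against 2.

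Of 40 changes of sign, 20 were at 4 h, where arrays opposed each other and 3 pairs limit the precision, 13 in the difference over 6 to 30 h minus 2 h, 6 at 6 h and 1 at 30 h minus 12 to 24 h. With the description, the 4 h differences were 0.22 for Pc01Hc13, 0.27 for Pc03Nd19, 0.39 for Pc03Ni14, 0.37 for Pc04Nk04 and 0.28 for Pc04Nk13. With arrays 1b and 3a turned they were 0.38, 0.37, 0.33, 0.30 and 0.074 in that order. Pc04Nk13 was 0.089 on array a alone, and Pc01Hd14, 0.063 otherwise, was -0.47 on array b alone, -0.43 with arrays 1a and 3b turned and -0.28 with replicates 1 and 3 left out. The median over the 4 h pairs, not counted among these, was 0.024 for Pc03Nd19, 0.049 for Pc03Ni14 and 0.022 for Pc04Nk13, against means of -0.23, -0.31 and -0.17. With 1 replicate of 4 h left out, differences ran from -0.37 to 0.032 for Pc03Nd19, -0.50 to 0.062 for Pc03Ni14, -0.55 to 0.035 for Pc04Nk04, -0.33 to 0.080 for Pc04Nk13 and -0.023 to 0.24 for Pc01Hd14. At 6 h, the description gave 0.51, 0.51, 0.36, 0.44, 0.018 and 0.24 for Pc01Hc13, Pc03Nd19, Pc03Ni14, Pc04Nk04, Pc04Nk13 and Pc01Hd14. For Pc01Hd14, the difference over 6 to 30 h minus that at 2 h was -0.20 on array a alone and -0.12 to 0.12 with a replicate left out, and that at 30 h minus 12 to 24 h was -0.023 on array a alone. Where the description or the turned arrays changed a sign, the exchanged direction of those arrays is the change made; for the other settings the cause was not tested.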
